A study of Caenorhabditis elegans with 4 samples.

Results

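Nuclear ribosomal RNA made up most of the reads inside listed peaks in each library: 91.9% and 92.3% in the MSTR-1::FLAG libraries, against 68.6% in the input. In the separate peak list of untagged worms it made up 98.5% in N2 CLIP, against 92.5% in the input. The peaks described here are those of the deposited tables that share at least 1 bp, on either strand, with 6 listed rRNA genes of the assembly WBcel235: rrn-1.1 and rrn-1.2 (18S), rrn-2.1 (5.8S), rrn-3.1 and rrn-3.56 (26S) and rrn-4.2 (5S). They number 13 of the 2664 peaks of the MSTR-1 table and 13 of the 310 peaks of the N2 table. The assay was eCLIP, which sequences RNA recovered with an immunoprecipitated protein after ultraviolet crosslinking, in whole young adult Caenorhabditis elegans, which were grown on standard NGM plates at 25 °C and received an ultraviolet dose of 1.2 mJ/cm2. The 2 MSTR-1 CLIP libraries, called biological replicates in the design text, came from worms with the allele on49, in which the gene F22D6.2 of chromosome I encodes MSTR-1::3xFLAG. The N2 CLIP library came from untagged worms of the wild-type strain N2, and the size-matched input was made from the tagged genotype. The columns do not show which MSTR-1 CLIP library is the first replicate, and here the column 0.e is library A and 1.e is library B. All 4 libraries are from whole worms, and the labels name no cell type.

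Ribosomes hold 4 ribosomal RNAs. In eukaryotes RNA polymerase I transcribes a repeated unit in which 18S, 5.8S and 26S RNA follow each other and are later cut apart, and RNA polymerase III transcribes 5S RNA from a separate array. 18S RNA is the core of the small subunit, which reads the messenger, and 26S RNA, paired with 5.8S RNA, is the core of the large subunit, which joins amino acids. As the most abundant RNA of the cell, rRNA is a common background of immunoprecipitations.

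In the gene table the 5 genes of chromosome I lie in the order rrn-3.56 (15060299 to 15061150), rrn-1.1 (15062083 to 15063836), rrn-2.1 (15064301 to 15064453), rrn-3.1 (15064838 to 15068346) and rrn-1.2 (15069280 to 15071033). The gene rrn-3.56 is annotated as an rRNA pseudogene of 852 nt, against 3509 nt for rrn-3.1, and both 18S genes have 1754 nt. The 5S gene rrn-4.2 lies on chromosome V (17115903 to 17116021, 119 nt). The table gives no strand. No source used here names the build of the peaks. The 6 peaks over 5S genes in the tables began within 4 nt of a gene's start and ended within 11 nt of its end.

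Reads on the 6 genes numbered 2242352 in library A and 3317373 in library B, against 280427 in the input over the same peaks. In the N2 table they numbered 919997 in N2 CLIP, against 279816 in the input. The members held the 8 highest levels of the MSTR-1 table and the 9 highest of the N2 table. Intervals of shares and folds in the text are exact 95% intervals that cover counting error only. The values of the authors' columns are reads divided by 1 factor per library, and folds over the input use that scaling unless another is named.

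No peak of either table lay over the 5.8S gene rrn-2.1. The nearest listed peak, in the spacer between the 18S and 5.8S genes (15064043 to 15064283), ended 18 nt before it. That peak had 275 and 502 reads in libraries A and B, against 307 in the input. Its mean fold over the input was 0.71, and it did not pass the test (limma adjusted p = 0.13). The tables list only peaks with a deposited fold above 1, so the absence of a listed 5.8S peak gives no level for this RNA.

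The 18S genes carried 3 peaks each in each table, called low, middle and high by their coordinates. The same stretches were covered in both copies. In the MSTR-1 table the middle peak spanned positions 870 to 1183 of rrn-1.1 and 870 to 1247 of rrn-1.2, counted from the low-coordinate end of the gene. The peaks covered 63.97% of rrn-1.1 and 74.8% of rrn-1.2 in that table. Values are added over both copies here, since rDNA copies are in general near-identical and the placement of reads between them cannot be checked from peak tables.

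The middle peak dominated 18S RNA. It held 434648 reads in library A and 717244 in library B, against 70732 in the input. In N2 CLIP it held 197287 reads, against 70501 in the input. Within each library the middle peak had 7.39 and 7.27 times the reads of the low peak in libraries A and B, 11.155 times in N2 CLIP and 1.995 times in the input. These ratios do not depend on the scaling between libraries. All 3 CLIP libraries therefore lay above the input in this ratio, and N2 CLIP lay above both MSTR-1 libraries. The peaks compared differ in extent, however. With copies added, the middle peak has 690 nt in the MSTR-1 table and 888 nt in the N2 table, and the low peak 1002 and 805 nt. Over the N2 peaks the input ratio was 1.990. The part of peak extent in the N2 CLIP ratio was not tested.

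The fold over the input was uneven along 18S RNA. The middle peak stood at 4.63-fold and 4.61-fold in libraries A and B, the high peak at 2.33-fold and 2.20-fold, and the low peak at 1.25-fold and 1.26-fold. In N2 CLIP the same peaks stood at 8.01-fold, 4.72-fold and 1.43-fold. The order of the 3 peaks was the same in the 3 CLIP libraries, and the gaps between them exceeded the gap between libraries A and B.

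**Figure D1:**
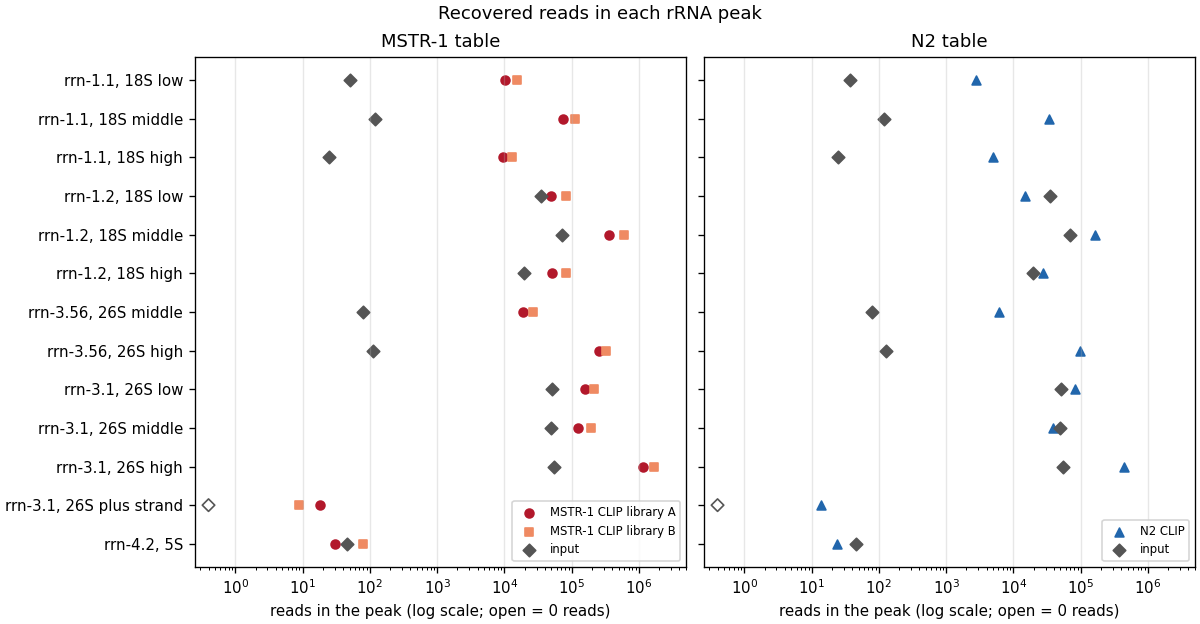
Recovered reads (x axis, log scale) of each rRNA peak, 1 row per peak, in the MSTR-1 table (left) and the N2 table (right); each point is 1 library. On rrn-1.1 and rrn-3.56 the input has 25 to 126 reads where the CLIP libraries have 2762 to 322327.

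The 26S RNA had the strongest single peak of the data. In rrn-3.1 it covered positions 3179 to 3511, the high-coordinate end of the gene (chromosome I, 15068016 to 15068348), and had the highest level of all peaks in both tables. Library A had 1133545 reads there and library B 1647258, against 54201 in the input. N2 CLIP had 447418 reads there, against 54201 in the input. The fold over the input was 15.7 and 13.8 in libraries A and B and 23.6 in N2 CLIP.

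The other peaks of rrn-3.1 were far lower over the input. The low peak (positions 1132 to 1615) had 157732 and 214198 reads in libraries A and B, against 50820 in the input, and the middle peak (2556 to 2970) had 125762 and 194779, against 49143. Their folds were 2.34 and 1.91 for the low peak and 1.93 and 1.80 for the middle peak. In N2 CLIP the low peak had 83162 reads (4.69-fold) and the middle peak 38585 (2.25-fold). Input reads were nearly even over the 3 peaks, whereas every CLIP library had most at the high end.

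With rrn-3.56 added, the high 26S peak had 8.78 and 9.20 times the reads of the low peak in libraries A and B, 6.55 times in N2 CLIP and 1.07 times in the input. The middle peak had 0.92 and 1.03 times the reads of the low peak in libraries A and B, 0.54 times in N2 CLIP and 0.97 times in the input. The MSTR-1 libraries and the N2 library thus differed in the middle-to-low ratio by more than libraries A and B differed from each other. N2 CLIP is 1 library, so this difference has no replicate check.

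The pseudogene rrn-3.56 carried 2 peaks. Counted from the high-coordinate end of each gene, they lay 552 to 867 nt and 37 to 286 nt away, and the middle and high peaks of rrn-3.1 lay 539 to 953 nt and -2 to 330 nt away. The peaks of rrn-3.56 were therefore added to the middle and high peaks of rrn-3.1. The sequences of the genes were not used here, so this pairing rests on position alone.

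**Figure D2:**
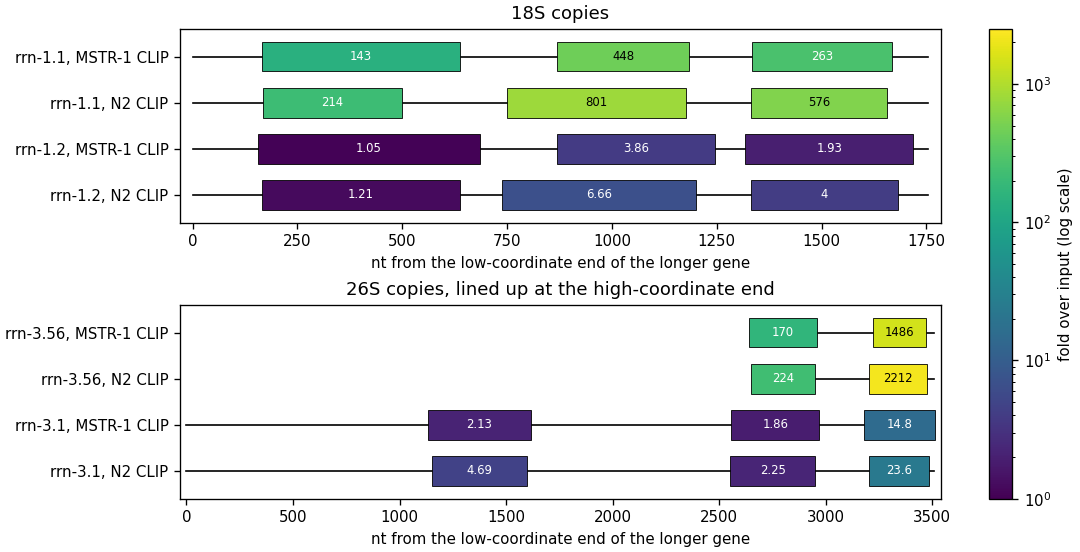
Minus-strand peaks (boxes) along the 18S genes (top) and the 26S genes (bottom, lined up at the high-coordinate end), with the x axis in nt; the number and colour give the fold over the input, as the mean of libraries A and B for MSTR-1 CLIP. The fold is highest at the middle 18S peak and the high 26S peak on both copies and in both CLIP groups.

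Per nt of listed peak, 26S RNA had more scaled reads than 18S RNA in every library. It had 944 and 812 scaled reads per nt of peak in libraries A and B, against 115 in the input, and 18S RNA had 248 and 246, against 74.9 in the input. Among N2 peaks, 26S RNA had 629 scaled reads per nt in N2 CLIP against 50.4 in the input, and 18S RNA had 177 against 31.3. These values are not depths per length of the whole RNA. In the MSTR-1 table the peaks covered 35.1% of rrn-3.1 and 74.8% of rrn-1.2. The 18S peak length also includes rrn-1.1, which held 196 of the 126026 18S reads of the input. As shares of the rRNA reads, 26S RNA took 75.3% and 72.5% in libraries A and B and 73.1% in N2 CLIP, against 55.0% in the input. The 18S shares were 24.7% and 27.5% in libraries A and B and 26.9% in N2 CLIP, against 44.9% in the input. The share of N2 CLIP lay between those of the MSTR-1 libraries for both RNAs.

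Position by position the rRNA reads of MSTR-1 CLIP were spread more like those of N2 CLIP than like those of the input. The high 26S peak took 61.8% and 59.4% of all rRNA reads of libraries A and B, and 59.2% of those of N2 CLIP, against 19.4% in the input. The low 18S peak held 2.62% and 2.97% in libraries A and B and 1.92% in N2 CLIP, against 12.6% in the input. At each of the 6 positions the N2 share was nearer to the mean of the MSTR-1 libraries than the input share was. The N2 share was 0.69 to 1.34 times that mean, and the input share 0.32 to 4.52 times.

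The N2 share nevertheless lay outside the range of libraries A and B at 5 of the 6 positions, the middle 18S peak being the exception. A range set by 2 libraries is easily missed by a further library. The 6 shares also depend on each other, and the count was not tested. At the high 26S peak the gap was small (59.2% in N2 CLIP, against 59.4% in library B). The N2 share was lower at the low 18S peak and at the middle 26S peak (4.86%, against 6.45% and 6.68% in libraries A and B). It was higher at the high 18S peak (3.52%, against 2.73% and 2.89%) and at the low 26S peak (9.04%, against 7.03% and 6.46%). Overlapping peaks of the tables differ in extent, such as the low peak of rrn-1.1 with 471 nt in the MSTR-1 table and 333 nt in the N2 table. With copies added, the input reads, which come from the same library in both tables, differed by little at these positions (35452 and 35432 at the low 18S peak). Of the 35452 reads, however, 35401 lay on rrn-1.2. On the low peak of rrn-1.1 the input had 51 and 37 reads. The part of peak extent in the N2 shares was not tested.

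**Figure D3:**
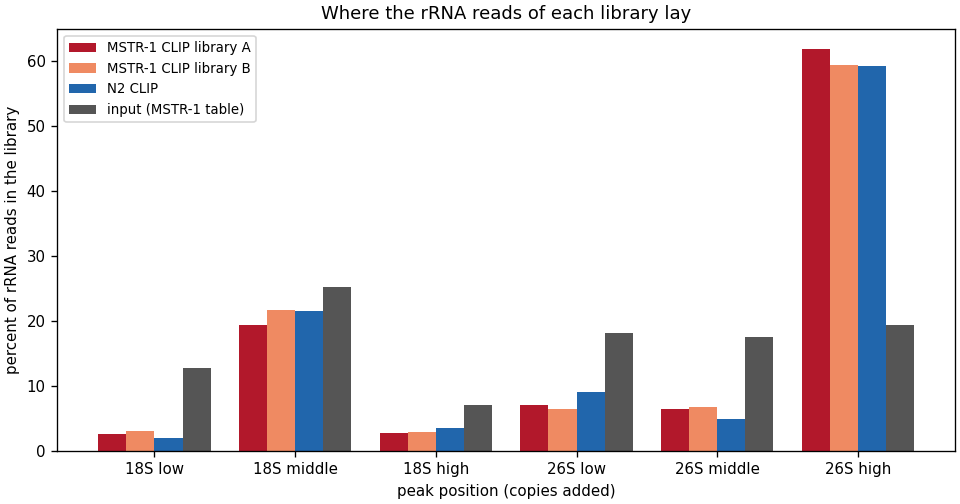
Percent of each library's rRNA reads (y axis) at 6 peak positions with copies added (x axis); bars are libraries A and B, N2 CLIP and the input. The high 26S peak holds 59.2% to 61.8% across the CLIP libraries, against 19.4% for the input.

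The reads were placed on the copies differently in CLIP and input. Of all 18S reads, rrn-1.1 held 17.0% in library A (interval 16.9 to 17.1) and 15.5% in library B (15.4 to 15.5). It held 16.7% in N2 CLIP (16.6 to 16.9), against 0.16% in the input (0.13 to 0.18). The input figure rests on 196 reads of 126026. At the low, middle and high 18S peaks the rrn-1.1 share was 17.2%, 17.2% and 15.6% in library A, 15.5%, 15.7% and 13.6% in library B and 15.6%, 17.0% and 15.5% in N2 CLIP. In the input it was 0.14%, 0.17% and 0.13% at the same peaks.

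The 26S copies showed the same split. At the middle and high peaks together rrn-3.56 held 17.7% and 15.9% in libraries A and B and 17.5% in N2 CLIP, against 0.18% in the input. Each CLIP library thus placed similar shares of 18S and 26S reads on the copy with the lower coordinates, with or without the FLAG tag. The input share was about as low for both RNAs. No source used here says how reads that fit several copies were assigned, and the part of this in the split was not tested.

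**Figure D4:**
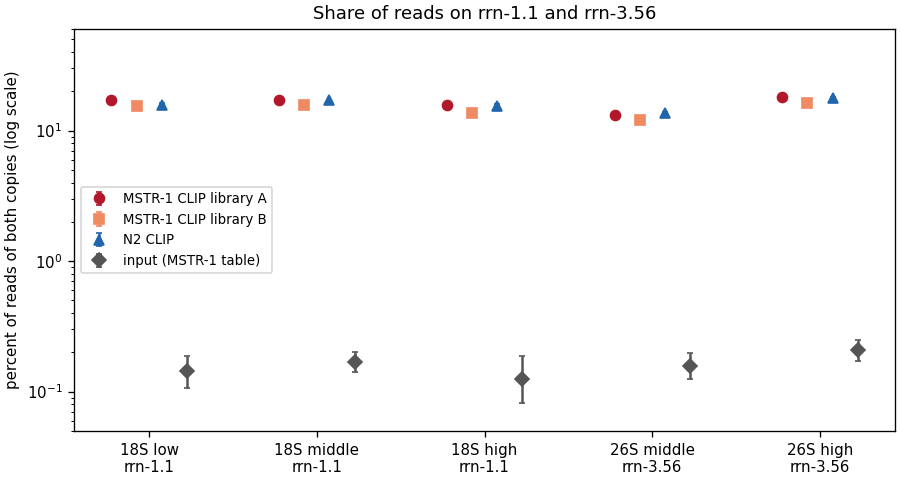
Share of the reads of both copies that lay on rrn-1.1 (18S) or rrn-3.56 (26S), in percent on a log scale, at each peak position; points are libraries and bars are exact 95% intervals. The CLIP libraries lie between 12.1% and 18.2%, and the plotted input, over the MSTR-1 peaks, between 0.13% and 0.21% (0.10% to 0.23% over the N2 peaks, not plotted).

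Folds of single copies differed by orders of magnitude. The 5 peaks of rrn-1.1 and rrn-3.56 were the 5 highest of the 2451 MSTR-1 peaks with an input read, and also the 5 highest of the 281 such N2 peaks. The high peak of rrn-3.56 had 251592 and 322327 reads in libraries A and B, against 113 in the input. Its fold was 1676 and 1296 in these libraries, and 2212 in N2 CLIP (97332 reads, against 126 in the input). The middle peak of rrn-1.1 stood at 470-fold and 427-fold in libraries A and B and 801-fold in N2 CLIP. With copies added, the same positions stood at 19.2-fold and 16.5-fold in libraries A and B for the high 26S peak, and at the values above for 18S RNA.

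Each MSTR-1 peak was tested against the input with limma on log2(scaled reads + 1) over all 2664 peaks, with the lone input assumed to vary like the CLIP libraries. At an adjusted p under 0.05, 10 of the 13 rRNA peaks rose above the input and 0 fell below it, against 12.7% higher and 1.76% lower over all peaks. No rRNA peak was lower at an unadjusted p under 0.05 either, and edgeR on the recovered reads also gave 10 and 0 (10.5% of all peaks higher). The median log2 change was 1.95 over the rRNA peaks and 0.36 over all peaks tested, with peaks that have no input read at their bound against 3 reads. The fitted medians, 3.57 and 0.45, depend on the pseudocount for the rRNA peaks, since 3.57 is the value of the plus-strand peak with 0 input reads (4.50 at a pseudocount of 0.5 and 1.71 at 5). Of the 6 rRNA peaks above it, 5 lie on rrn-1.1 and rrn-3.56. All listed peaks have a deposited fold above 1 over this input, which makes these calls a description of peaks that were selected on it. limma's trend pools the spread between the CLIP libraries over peaks of similar level, and without it limma called 0 peaks of any kind, with 8 of the 13 higher at an unadjusted p under 0.05.

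All 5 peaks of rrn-1.1 and rrn-3.56 were called higher, with log2 changes of 7.14 to 10.5 (SE 0.20 to 0.23), and so were 5 of the 6 minus-strand peaks of rrn-1.2 and rrn-3.1. The limma SE comes from the spread between libraries A and B, pooled over peaks of similar level. It leaves out the counting error of the input, so SE and p are too small where the input has few reads. On rrn-1.1 and rrn-3.56 the input had 25 to 120 reads per peak. The high peak of rrn-3.1 had a log2 change of 3.88 (SE 0.38, limma adjusted p = 2.05e-22). The middle peak of rrn-1.2 had 1.95 (SE 0.34, limma adjusted p = 2.10e-07). The low and middle peaks of rrn-3.1 had 1.08 (SE 0.29, limma adjusted p = 0.0030) and 0.90 (SE 0.29, limma adjusted p = 0.017). The high peak of rrn-1.2 had 0.95 (SE 0.25, limma adjusted p = 0.0019). The low peak of rrn-1.2, with 48667 and 83367 reads against 35401 in the input, had 0.07 (SE 0.26, limma adjusted p = 0.90). Scaled by the totals of reads in peaks, the low and middle peaks of rrn-3.1 and all 3 peaks of rrn-1.2 lay below the input, with log2 changes of -2.01 to -0.13. With DESeq2's size factors the low and middle peaks of rrn-3.1 and the high peak of rrn-1.2 did not pass (limma adjusted p = 0.11, 0.31 and 0.14), and with TMM the middle peak of rrn-3.1 did not (limma adjusted p = 0.13).

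Summed over copies, 26S RNA stood at 7.66-fold ± 0.81 and 18S RNA at 3.30-fold ± 0.02 over the input in MSTR-1 CLIP (SD, n = 2). In N2 CLIP they stood at 12.5-fold (12.4 to 12.6) and 5.64-fold (5.60 to 5.68). These sums have no test. Their size and, for 18S RNA, their direction rest on the scaling. With the totals of reads in peaks, 18S RNA stood at 0.78-fold in MSTR-1 CLIP and 0.64-fold in N2 CLIP, and 26S RNA at 1.80-fold and 1.41-fold. The order of the CLIP groups also turned: N2 CLIP was the higher of the 2 for 18S and 26S RNA with the authors' factors, and MSTR-1 CLIP was the higher with totals of reads, TMM, DESeq2's factors and totals outside rRNA genes. With the last of these the 18S folds were close (3.131 in MSTR-1 CLIP and 3.101 in N2 CLIP). Each scaling was set within its own peak list, so the CLIP groups are not on a common scale and their order was not tested. The 26S RNA was above the input in both groups under every scaling tried.

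Strand was listed the same way for nearly all rRNA reads. The genes rrn-1.1, rrn-2.1 and rrn-3.1 follow the order 18S, 5.8S and 26S at rising coordinates, yet most of their peaks are listed on the minus strand. The strand convention is not given, so it is open which listed strand is that of the rRNA. Over the 18S and 26S genes, 11 peaks of each table were on the minus strand and 1 was on the plus strand, inside the high-coordinate end of rrn-3.1 (15068089 to 15068238 in the MSTR-1 table). That peak had 18 and 9 reads in libraries A and B, against 0 in the input, and 14 in N2 CLIP, against 0 in the input. With the authors' factors it was at least 2.94-fold higher in MSTR-1 CLIP and at least 13.4-fold higher in N2 CLIP, counting the input at 3 reads. The first bound is for the mean of libraries A and B, which had 19.5 and 5.90 scaled reads. Other scalings gave lower folds in N2 CLIP (1.22 against 5.64 for 18S RNA with DESeq2's factors), and the bounds were not computed with them. It did not pass the test in MSTR-1 CLIP (limma adjusted p = 0.11). Of the 18S and 26S reads, plus-strand reads were 0.00080% in library A, 0.00027% in library B, and 0.0015% for N2. The 0 input reads of 280381 allow a share of up to 0.0013%, so a difference in this share from the input was not detectable at this depth in libraries A and B. In N2 CLIP the interval (0.00083% to 0.00255%) overlapped that of the input (0% to 0.0013%), so a difference was not shown there either.

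The reads listed for 5S RNA differed from copy to copy. The peak over rrn-4.2, listed on the plus strand, had 30 reads in library A and 80 in library B, against 46 in the input, and 24 in N2 CLIP, against 46 in the input. Library A stood at 0.49-fold over the input (interval 0.30 to 0.79), library B at 0.79-fold (0.54 to 1.16) and N2 CLIP at 1.49-fold (0.87 to 2.50). The log2 change in MSTR-1 CLIP was -0.67 (SE 0.36, limma adjusted p = 0.26). The intervals of library B and N2 CLIP both span the level of the input, and N2 CLIP lay below the input at 0.17-fold to 0.82-fold under the 4 other scalings. With the authors' scaling a peak listed for N2 cannot lie below the input, since the lowest deposited fold in that table is 1.002, whereas mean folds down to 0.50 are listed for MSTR-1.

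Of the 15 other 5S genes in the gene table, 2 had a peak, also on the plus strand. The peak over rrn-4.3 had 955 and 1781 reads in libraries A and B, against 182 in the input, and 388 in N2 CLIP, against 182. The peak over rrn-4.4 had 255 and 391 reads in libraries A and B, against 43 in the input, and 108 in N2 CLIP, against 43. Both were higher than the input in MSTR-1 CLIP, with log2 changes of 2.06 (SE 0.21, limma adjusted p = 3.22e-21) and 2.08 (SE 0.26, limma adjusted p = 4.64e-14). Of the reads of these 3 copies rrn-4.2 held 2.42% and 3.55% in libraries A and B and 4.62% in N2 CLIP, against 17.0% in the input. Added over the 3 copies, 5S RNA stood at 3.61-fold ± 0.23 in MSTR-1 CLIP (SD, n = 2) and 5.50-fold in N2 CLIP. The copies rrn-4.3 and rrn-4.4 were added after their values were seen.

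**Figure D5:**
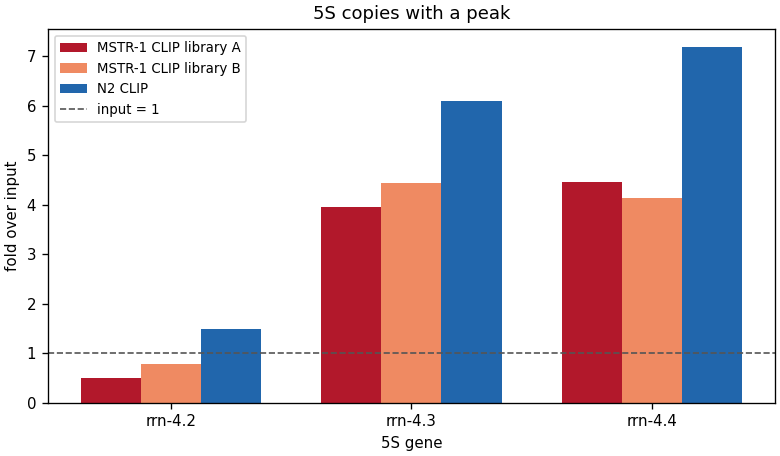
Fold over the input (y axis, authors' scaling) of the 3 5S genes with a peak; bars are libraries A and B and N2 CLIP, and the dashed line is the input. The folds over rrn-4.2 are 0.49, 0.79 and 1.49, and those over rrn-4.3 and rrn-4.4 are 3.95 to 7.19.

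The MSTR-1 table lists 5 minus-strand spacer peaks from the end of rrn-1.1 upwards, all below the input on average, with mean folds of 0.50 to 0.76 and none past the test (the lowest limma adjusted p was 0.071). The lowest of them, beyond rrn-1.2, had 1 and 38 reads in libraries A and B against 18 in the input, so the libraries disagreed there. Between rrn-3.1 and rrn-1.2 the N2 table lists 2 spacer peaks, with 13 reads in N2 CLIP against 31 in the input (1.20-fold) and 75 against 210 (1.02-fold). A further spacer peak, between rrn-3.56 and rrn-1.1 (15061687 to 15061900), had 99 and 134 reads in libraries A and B against 3 in the input (log2 change 4.204, SE 0.41, limma adjusted p = 1.32e-22). With so few input reads this SE is too small (edgeR adjusted p = 9.64e-12). In N2 CLIP the overlapping peak had 27 reads, against 3 in the input. It lies beside the copies on which the input had few reads.

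The rRNAs of mitochondrial ribosomes, encoded in the mitochondrial genome, also had peaks. Over KEF34_r01 and KEF34_r02 the MSTR-1 table lists 6 peaks, with 15 to 77 reads in library A and 10 to 35 in library B, against 0 to 4 in the input. The peak from 10735 to 10965 in KEF34_r01 had 77 and 35 reads against 2 (log2 change 3.53, SE 0.53, limma adjusted p = 1.50e-09), and it was the one with an N2 peak (30 reads, against 1 in the input). Its SE also leaves out the counting error of the input (edgeR adjusted p = 1.30e-06).

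Messengers for the making of ribosomes were looked up from a list of 51 genes, of which 45 were found in the gene table by symbol. The list holds nucleolar proteins, RNA polymerase I subunits, RNA-trimming enzymes and the ribosomal proteins that bind 5S RNA. Of these, 10 genes had a peak over no other gene, 20 peaks in all. Among them 0 rose above the input and 2 fell below it, against 12.7% higher and 1.76% lower over all peaks, and the median log2 change was -0.41, against 0.45 over all peaks. Both lower peaks lay over rpl-5, which encodes the ribosomal protein that carries 5S RNA into the large subunit (log2 change -0.83, SE 0.27, limma adjusted p = 0.020, and -0.89, SE 0.26, limma adjusted p = 0.0075). The 3 peaks over fib-1, which encodes the rRNA methyltransferase fibrillarin, had log2 changes of -0.60, -0.30 and -0.74 and did not pass.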

How the data were processed

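The authors deposited 2 peak tables, whose library columns hold a signal: reads per peak divided by 1 size factor per library. Tools named in the submitters' processing notes are STAR, cutadapt, deepTools and UMI-tools. The sources used here do not give the peak caller and its thresholds, the build, the handling of reads with several positions or the strand convention. Dividing each column by its step turned 100% of its values into whole reads (tolerance 0.02). In N2 CLIP no listed peak has under 11 reads. The deposited fold is the ratio of the summed CLIP columns to the input, so folds were recomputed per library. The column 0.c was taken as the input. Peaks were assigned with RefSeq's gene table of WBcel235.

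limma 3.58.1 (R 4.3.3) was run on log2(scaled reads + 1) with a trend and Benjamini-Hochberg adjustment. edgeR 4.0.16 and DESeq2 1.42.0 were run on recovered reads. Tested on simulated data for MSTR-1 CLIP over input (2664 peaks), the limma fit recovered 2% of 2-fold, 54% of 4-fold, 98% of 8-fold and 100% of 16-fold changes, with 28 false calls. Over all peaks, one that did not pass may thus still differ by 2-fold to 4-fold. In this simulation false calls also made up a larger part of all calls than the adjusted p threshold of 0.05 allows. The simulation used peaks of all levels and an assumed dispersion that was the same for each. Its percentages therefore do not carry over to single rRNA peaks. Shares have exact Clopper-Pearson intervals and folds of sums an exact interval from counts. N2 CLIP has no replicate and no test. The rule for names took the 6 listed genes and, singly, each RNA's peak with most reads per strand and those with the highest and lowest fold; the other member peaks are given with them. Members and lists were chosen with earlier results of these data known. The 15363 piRNA genes were left out of the naming of other peaks.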

Additional observations from a re-analysis of the deposited data

Results flagged for a closer look

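The 5S gene rrn-4.2 stood on opposite sides of the input in the 2 kinds of immunoprecipitation. Its mean fold was 0.64 in MSTR-1 CLIP, below the input in both libraries, and 1.49 in N2 CLIP. The side of N2 CLIP was fixed by the listing of peaks, since every peak of that table has a deposited fold above 1 over the input with the authors' scaling. The difference was not tested, and the counts behind it are 30, 80 and 24 CLIP reads against 46 in the input. How reads that fit several 5S copies were assigned is not given. Under each of the 4 other scalings both groups lay below the input.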

How the results depend on the processing

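For 18S RNA the summed fold in MSTR-1 CLIP was 2.44 with TMM, 2.50 with DESeq2's factors, 3.131 with totals outside rRNA genes and 0.78 with column totals. In N2 CLIP it was 1.34, 1.22, 3.101 and 0.64 in that order. For 26S RNA the fold was 5.65, 5.804, 7.22 and 1.80 in MSTR-1 CLIP and 2.97, 2.69, 6.87 and 1.41 in N2 CLIP. For rrn-4.2 it was 0.47, 0.49, 0.62 and 0.15 in MSTR-1 CLIP and 0.36, 0.32, 0.82 and 0.17 in N2 CLIP. With rrn-4.3 and rrn-4.4, added after seeing the data, 5S RNA stood at 3.61 and 5.50.

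The median log2 change of all peaks was 0.45 with the authors' factors, 0.06 with TMM, 0.09 with DESeq2's factors, 0.38 with totals outside rRNA genes and -1.48 with column totals. With column totals 6 rRNA peaks were higher and 5 lower (57 and 1363 of all peaks). TMM gave 9 higher and 1 lower, DESeq2's factors 7 and 1, both with rrn-4.2 as the lower peak, and limma without a trend 0 and 0. The peaks that lost their call were the middle peak of rrn-3.1 with TMM, and with DESeq2's factors also the low peak of rrn-3.1 and the high peak of rrn-1.2. Relative to the input the log2 change turned negative with column totals for the low (-1.001) and middle (-1.18) peaks of rrn-3.1 and the low (-2.01), middle (-0.13) and high (-1.13) peaks of rrn-1.2. The low peak of rrn-1.2 also turned with TMM (-0.36), DESeq2's factors (-0.33) and totals outside rRNA genes (-0.0071). The 5 peaks of rrn-1.1 and rrn-3.56 and the high peak of rrn-3.1 kept their call under every scaling.

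Without library A or library B the MSTR-1 folds ranged from 3.29 to 3.31 for 18S RNA, 7.08 to 8.23 for 26S RNA and 0.49 to 0.79 for rrn-4.2. With 1 CLIP library left there is no residual spread, so peaks were not tested. Pseudocounts of 0.5 and 5, a minimum of 10 reads, edgeR and DESeq2 on recovered reads, and peaks with at least 50% inside the gene left the calls at 10 and 0. The minimum of 10 reads and the 50% rule kept every rRNA peak, so they could not change the set of rRNA peaks. Shares could not move with the overlap rule or with peaks common to both tables, since every rRNA peak met both conditions. Overlap on the gene's own strand was not run, since the gene table gives no strand; leaving out the plus-strand peak changed no call. No paired analysis was possible because the columns carry no replicate numbers and only MSTR-1 CLIP has replicates.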
